A study of Mus musculus with 89 samples.

Results

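Core CuO, the copper oxide nanomaterial without a surface coating, was given to mice at 3 doses, and the genes that separated the highest from the lowest dose are described here. The members were the 3 samples of the dose of 40 and the 3 samples of the dose of 2.5 with PBS challenge, that is 6 of the 89 lung samples of the series, and the 3 samples of the dose of 10 were read between them. All of these mice, and the 7 PBS-challenged control samples without particles, were female BALB/c mice aged 6 to 8 weeks that had been sensitized to ovalbumin (OVA) with the adjuvant Alum and were not challenged with OVA. CuO in PBS, or PBS alone, was placed at the back of the throat to be inhaled (oropharyngeal aspiration) on 4 consecutive days, and lung tissue from the left lobe was taken 24 h after the last administration, once the lungs had been lavaged. The dose is in μg/mouse per administration by the study's methods, whereas one label field gives μg/day and another gives mg/mouse, and μg/mouse is used here. Each sample was an independent pool of 2 RNA samples by the study's methods, hybridised in 1 colour (Cy3 or Cy5) of a 2-colour Agilent mouse microarray. The p-values therefore measured the spread between pools, estimated over all 26 groups of the series in 1 fit, so that a group with a wider spread than the rest has a standard error that is too small.

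Levels are log2 intensities after quantile normalization, averaged over the probes of a gene, with the effects of dye, slide and array position removed. A difference of 1 on this scale is a doubling, and levels of different genes were not compared. A gene was called a differentially expressed gene (DEG) at an adjusted p below 0.05 and a log2 fold change beyond 0.58 in either direction. The doses of 2.5, 10 and 40 μg/mouse lay on the same slides, and their dyes were not balanced, with 1 Cy3 and 2 Cy5 samples at 2.5 μg/mouse and the opposite at 40 μg/mouse. Only 3 of the 7 PBS samples, replicates 1 to 3, lay on these slides. PBS replicates 4 to 7 lay on other slides and were dimmer, with a median foreground of 56 to 80 against 93.5 to 154. Comparisons with PBS therefore rest in part on controls of other slides. Over the 16 CuO and PBS samples, 54.0 to 62.7% of the spots were well above background in Cy3 and 50.8 to 65.7% in Cy5, and 0 spots were saturated. The lung markers Sftpc, Sftpb, Scgb1a1, Ager, Pecam1 and Foxj1 were well above background in 16 of 16 samples. The number of arrays limits the precision of every value below.

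CuO dissolves in part in lung fluid and in the acid compartments of macrophages, so that cells meet both particles and copper ions. Metallothioneins are small cysteine-rich proteins that bind zinc and copper, and their genes are switched on by the metal-sensing transcription factor MTF-1 through short metal response elements. An injured lung answers in layers: acute phase proteins and chemokines come early, white blood cells follow, and epithelial and stromal cells then divide and lay down matrix. The promoters of the genes of metal binding and of cell division are shown first, because these 2 groups moved at both ends of the dose range.

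The windows run from 250 bases before to 50 bases after the RefSeq start on GRCm38.p6, and each is written 5′ to 3′ on the gene's own strand. In Mt1 (chr8:94178839-94179138, plus strand) and Mt2 (chr8:94172368-94172667, plus strand), capitals mark the metal response element core, searched on both strands as TGCACNC and TGCGCNC. Mt1 held 3 matches and Mt2 held 4.
Mt1: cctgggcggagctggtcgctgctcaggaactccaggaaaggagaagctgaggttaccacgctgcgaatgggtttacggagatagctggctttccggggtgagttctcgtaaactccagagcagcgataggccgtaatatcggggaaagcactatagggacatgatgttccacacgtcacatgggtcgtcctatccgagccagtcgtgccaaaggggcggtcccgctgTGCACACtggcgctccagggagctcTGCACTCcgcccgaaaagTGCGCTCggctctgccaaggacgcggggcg
Mt2: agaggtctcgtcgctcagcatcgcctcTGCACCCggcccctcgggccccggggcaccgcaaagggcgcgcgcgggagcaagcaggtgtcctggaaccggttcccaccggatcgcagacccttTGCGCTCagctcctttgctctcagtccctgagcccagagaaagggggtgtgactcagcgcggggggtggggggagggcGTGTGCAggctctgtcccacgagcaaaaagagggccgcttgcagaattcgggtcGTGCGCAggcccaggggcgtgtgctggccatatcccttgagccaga
In Cdk1 (chr10:69352863-69353162, minus strand) and Top2a (chr11:99024140-99024439, minus strand), capitals mark the cell cycle homology region, searched as TTTGAA and TTCGAA, and the CCAAT box, searched as CCAAT, each on both strands. Cdk1 held 2 and 3 matches, and Top2a held 4 and 6.
Cdk1: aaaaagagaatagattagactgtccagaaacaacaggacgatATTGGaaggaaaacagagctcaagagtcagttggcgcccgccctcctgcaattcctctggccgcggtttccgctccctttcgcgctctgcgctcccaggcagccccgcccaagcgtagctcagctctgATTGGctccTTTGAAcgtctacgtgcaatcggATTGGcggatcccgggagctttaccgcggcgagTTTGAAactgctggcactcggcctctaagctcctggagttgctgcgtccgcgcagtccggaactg
Top2a: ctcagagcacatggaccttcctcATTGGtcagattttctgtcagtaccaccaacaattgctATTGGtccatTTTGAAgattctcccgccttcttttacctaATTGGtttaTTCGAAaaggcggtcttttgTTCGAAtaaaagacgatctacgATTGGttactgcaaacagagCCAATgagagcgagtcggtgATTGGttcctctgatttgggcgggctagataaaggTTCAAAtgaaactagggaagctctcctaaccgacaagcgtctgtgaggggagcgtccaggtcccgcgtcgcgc
Of 32851 mouse promoters of this length, 25.7% held at least 1 metal response element core and 1.97% held 3 or more. The cell cycle homology region was found in 19.2% and in 0.31% at 3 or more, and the CCAAT box in 37.4% and 3.37%. In the list of mitotic genes below, 18 of 21 had a promoter entry, 12 of these held the cell cycle homology region and 16 held CCAAT. These short matches are descriptions of the letters and not of bound sites.

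Between 2.5 and 40 μg/mouse, 1282 of 22911 genes were called (5.6%), with 707 up-regulated (3.09%) and 575 down-regulated (2.51%) at the higher dose. At an unadjusted p below 0.05 there were 6640 genes. The 3 samples at 40 μg/mouse lay wholly on one side of the 3 samples at 2.5 μg/mouse in 1268 of the 1282, and in 8524 of all genes (37.2%). The median step over all genes was 0.00 and its median standard error (SE) was 0.11.

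More genes were called above than below 10 μg/mouse. From 2.5 to 10 μg/mouse only 6 genes were called (0.0262%), and from 10 to 40 μg/mouse, an equal 4-fold increase, 969 were called (4.23%). Of the 1282 genes of the whole step, 797 (62.2%) were also called from 10 to 40 μg/mouse and 4 from 2.5 to 10 μg/mouse. Their median rise was 0.18 over the lower interval and 0.67 over the upper one, and their median fall was −0.16 and −0.67. The difference between the intervals itself was called in 352 genes (1.54%), and among the 1282 it pointed the way of the step in 153 and the other way in 0. The 352 became 66 without replicate 1 of 10 μg/mouse, 22 with only the CuO and PBS samples of these slides and 0 with dye and array as the fixed terms.

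The 6 genes of the lower interval were named after their values were seen. Col1a1, the main chain of type I collagen, rose by 1.04 ± 0.20 (SE; limma, adjusted p = 0.0187) from 2.5 to 10 μg/mouse. H19, a non-coding RNA of growing tissue, rose by 0.81 and the protease inhibitor-like genes Pi16 and Pi15 by 0.82 and 0.59. Slc6a20a, an amino acid transporter, fell by 0.73 and Entpd8, a nucleotide-hydrolysing enzyme, fell by 0.60. Pi16 was lower again at 40 than at 10 μg/mouse, by −0.52, so that it was not called over the whole step.

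Each gene was then set against the PBS controls at the low dose. CuO at 2.5 μg/mouse differed from PBS in 551 genes (2.4%; 443 higher, 1.93%, and 108 lower, 0.471%), at 10 μg/mouse in 838 (3.66%) and at 40 μg/mouse in 2731 (11.9%; 1567 higher, 6.84%, and 1164 lower, 5.08%). A gene needed the high dose where the step and 40 μg/mouse against PBS were called in one direction and the 95% interval of 2.5 μg/mouse against PBS lay within 0.58 of 0; 539 genes did, 300 up and 239 down, and 26 of them were called against PBS at 10 μg/mouse. The rule does not use 10 μg/mouse, so a gene of this class may have moved there already, as Col1a1 had. The medians of the 300 rises against PBS were 0.11, 0.26 and 0.87 at the 3 doses and those of the 239 falls −0.11, −0.26 and −0.85. A gene was graded where 2.5 μg/mouse against PBS and the step were called in the same direction (208 genes, 179 up and 29 down). It was at plateau where 2.5 μg/mouse against PBS was called and the 95% interval of the step lay within 0.58 of 0 (131 genes, 92 up and 39 down), and it turned back where both were called in opposite directions (38 genes). The step and the comparison of 2.5 μg/mouse with PBS share the 2.5 μg/mouse samples, so an error in those samples moves both, in opposite directions.

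The remaining genes could not be placed. In 360 genes the step and 40 μg/mouse against PBS were called, but the interval at 2.5 μg/mouse was too wide to tell an absent from a small change. In 137 the step was called and 40 μg/mouse was not called against PBS. Another 174 had moved at 2.5 μg/mouse, 139 of them up, with a step that was neither called nor held within 0.58 of 0.

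**Figure D1:**
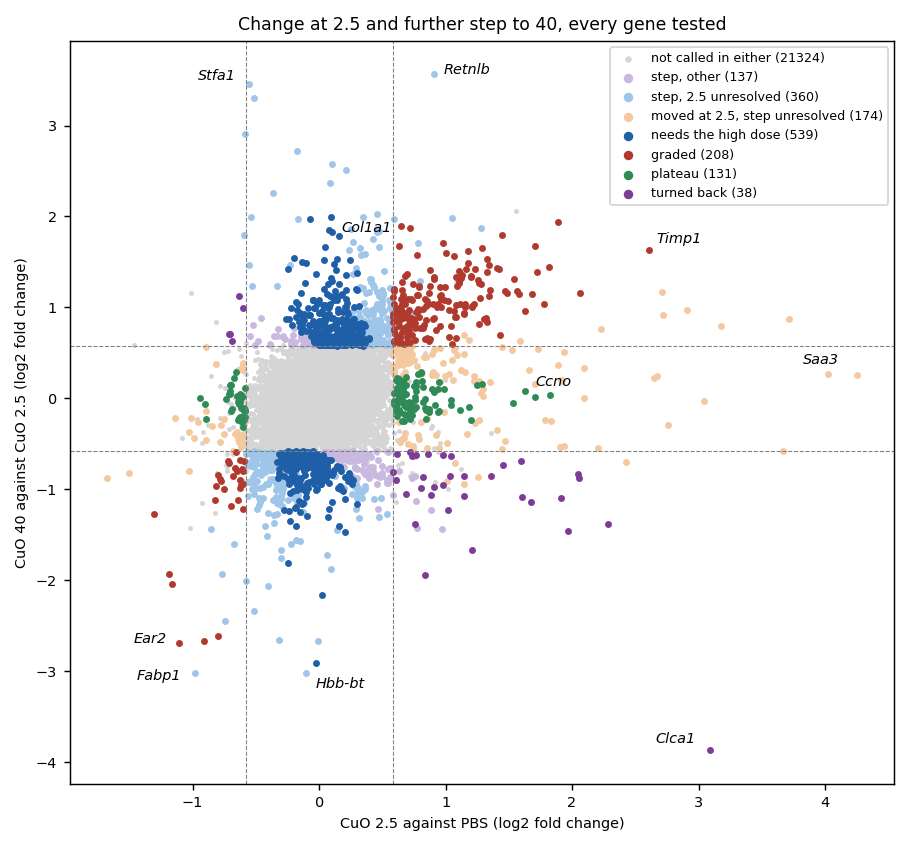
Each point is 1 of 22911 genes; the horizontal axis is the log2 fold change of CuO 2.5 μg/mouse against PBS and the vertical axis that of CuO 40 against 2.5 μg/mouse, with colours for the dose classes and dashed lines at 0.58 on either side of 0. By the class rules, the 539 genes that needed the high dose form a vertical band around 0 on the horizontal axis, and the 131 plateau genes lie close to the horizontal line at 0. The 208 graded genes lie mostly at the upper right (179 up).

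The largest rises of the step were in genes of neutrophils and mucosal defence. Retnlb, a resistin-like protein that goblet cells secrete, stood at 6.51, 7.28 and 7.15 in the 3 samples at 2.5 μg/mouse, at 6.76, 6.94 and 7.15 at 10 μg/mouse, and at 9.38, 11.36 and 10.88 at 40 μg/mouse. The 7 PBS samples ran from 5.61 through a median of 6.08 to 6.58. The 3 samples at 40 μg/mouse were thus far above every other sample, while those at 2.5 and 10 μg/mouse overlapped. The step was 3.56 ± 0.40 (SE, 11.8-fold; limma, adjusted p = 1.66e-09), and the difference from PBS at 2.5 μg/mouse was 0.91 (adjusted p = 0.13).

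Stfa1, a stefin, that is a cytosolic inhibitor of cathepsin proteases found in neutrophils, stood at 6.30, 6.48 and 6.65 at 2.5 μg/mouse, at 7.39, 7.45 and 7.86 at 10 μg/mouse and at 9.46, 10.30 and 10.05 at 40 μg/mouse. The 3 doses did not overlap, and the 2.5 μg/mouse samples lay in or under the PBS range of 6.60 to 7.60. Its step was 3.46 ± 0.40 (adjusted p = 2.25e-09), and those of its relatives Cstdc5, Stfa2, Stfa2l1, Cstdc4 and Stfa3 ran from 2.26 to 3.31. The stefins are near-copies of each other, so that their probes may share signal and they are not separate observations.

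Mmp8, neutrophil collagenase, was measured at 7.40, 7.90 and 7.52, then at 8.26, 8.62 and 8.51, and then at 9.83, 10.45 and 10.27 at the 3 doses, with PBS samples between 7.40 and 7.61. The low dose overlapped PBS and each higher dose stood clear of the one before. The step was 2.58 ± 0.27 (5.96-fold; adjusted p = 1.26e-10). Of 16 measured neutrophil genes, 7 rose over the step and 2 fell, and their median step was 0.62. The calprotectin subunits S100a8 and S100a9 rose by 1.80 and 1.47, the decoy receptor Il1r2 by 1.43 and the chemokine receptor Cxcr2 by 1.11. The formyl peptide receptors Fpr1 and Fpr2 fell by 1.26 and 0.96. The granule genes Mpo, Elane and Ngp were not called, with steps of 0.37, 0.08 and −0.09. Without replicate 2 of 40 μg/mouse, 4 of the 16 rose. In tissue of mixed cells, a change in the number of cells of a type and a change in RNA per cell cannot be told apart, here and in each cell type below.

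Ereg, epiregulin, a ligand of the EGF receptor, stood at 5.66, 5.85 and 5.65 at 2.5 μg/mouse, at 6.14, 5.76 and 5.85 at 10 μg/mouse and at 7.74, 8.49 and 8.46 at 40 μg/mouse. It was well above background in 0 of 7 PBS samples, in 1 of 3 at 2.5 μg/mouse and in 3 of 3 at 40 μg/mouse, and its step was 2.51 ± 0.21 (adjusted p = 6.33e-13). Areg, amphiregulin, another ligand of that receptor, rose by 1.39. Sprr1a, a small proline-rich protein that squamous and injured epithelium cross-links into its envelope, was at 5.71, 6.33 and 5.71, then at 6.11, 6.13 and 5.97, and then at 7.56, 7.98 and 8.14. The samples at 2.5 and 10 μg/mouse lay within the PBS range of 5.52 to 6.40 and those at 40 μg/mouse above it, a step of 1.98 ± 0.23 (adjusted p = 4.55e-09). The membrane protein gene Tmem213 (2.00 ± 0.20) and Mrap, the melanocortin receptor accessory protein (1.79 ± 0.16), needed the high dose as Sprr1a did. Il11, a cytokine of the IL-6 family that acts on stromal cells, rose by 1.09 and the p53 target Ccng1, cyclin G1, by 0.63, while at 2.5 μg/mouse they lay 0.14 and −0.04 from PBS. Their lists mostly did not move over the step. Of 12 p53 targets 1 rose and 0 fell, and of 14 genes of the IL-6 family and its feedback 2 rose and 0 fell.

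Most genes of the extracellular matrix rose between the low and the high dose. Of 21 measured genes of wound matrix and proteolysis, 15 rose over the step and 1 fell, against 3.09% and 2.51% of all genes, and 6 needed the high dose. Their median against PBS was 0.29, 0.46 and 1.47 at the 3 doses. Of 10 collagen genes, 5 rose and 0 fell, with a median step of 0.56. Col1a1 stood at 11.39, 11.78 and 11.74 at 2.5 μg/mouse, at 12.70, 12.53 and 12.79 at 10 μg/mouse, and at 13.83, 13.23 and 13.35 at 40 μg/mouse, against a PBS range of 11.23 to 11.75 with a median of 11.47. The low dose lay about the PBS samples, and the 3 doses did not overlap one another. The step was 1.83 ± 0.20 (3.56-fold; adjusted p = 3.2e-10) and the low dose differed from PBS by 0.10 ± 0.19.

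Col5a1, which starts and sizes collagen I fibrils, was at 10.48, 10.68 and 10.18 at 2.5 μg/mouse, at 10.94, 10.75 and 10.98 at 10 μg/mouse and at 12.10, 12.05 and 12.17 at 40 μg/mouse. The samples at 40 μg/mouse stood close together and more than 1 above all the others, a step of 1.66 ± 0.16 (adjusted p = 1.39e-11). Fn1, fibronectin, on which fibrillar collagen is assembled, was at 11.08, 11.36 and 11.15, then at 11.64, 11.88 and 11.74, and then at 12.84, 12.69 and 12.64, again with no overlap between the doses (step 1.52 ± 0.15, adjusted p = 2.09e-11). Eln, elastin, rose from 9.40, 9.02 and 8.66 at 2.5 μg/mouse to 11.20, 10.49 and 10.95 at 40 μg/mouse (1.85 ± 0.25, adjusted p = 1.44e-07); with dye and array as the fixed terms its step was 1.46 and no longer called (adjusted p = 0.0787). Col3a1, Col1a2 and Col6a2 rose by 1.07, 0.96 and 0.76, the cross-linking oxidases Lox and Loxl2, which are copper enzymes, by 1.31 and 1.03, and Tnc, tenascin C, by 1.82. Col4a1, of basement membrane, had a step of 0.37 that was not called. The exception was Mmp12, macrophage elastase, which was higher than PBS at 2.5 μg/mouse by 1.02 and fell over the step by 1.22. Without replicate 3 of 2.5 μg/mouse neither was called by limma (0.70, adjusted p = 0.376, and −0.92, adjusted p = 0.123). The fall was also not called without replicate 2 of 40 μg/mouse, or with array as a fixed term or a random block.

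**Figure D2:**
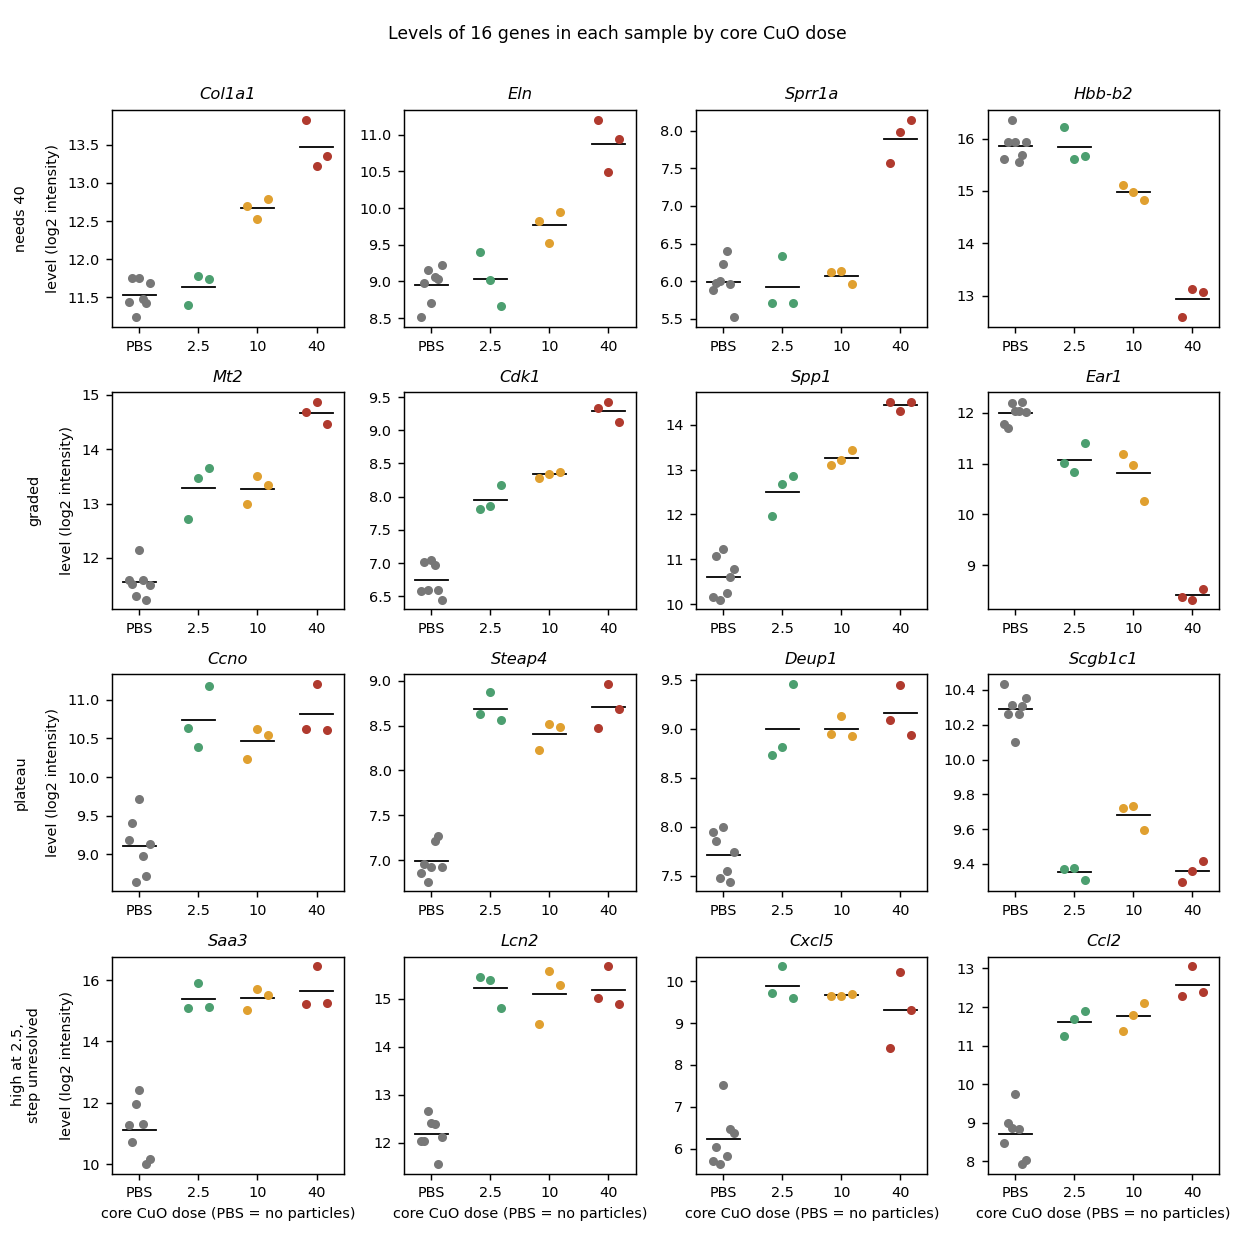
Log2 intensity of 16 genes in each PBS, CuO 2.5, CuO 10 and CuO 40 μg/mouse sample (points), with lines through the group means; the rows hold genes that needed the high dose, graded genes, plateau genes, and genes high at 2.5 μg/mouse whose step was unresolved. Col1a1 stays near PBS at 2.5 μg/mouse and is above 13 at 40 μg/mouse, Cdk1 climbs at each end of the range, Ccno is flat above PBS, and Saa3 is near 15 or higher at all 3 doses.

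Genes of red blood cells were among the largest falls of the step. Hbb-b2, a beta globin, stood at 16.22, 15.60 and 15.67 at 2.5 μg/mouse, at 15.12, 14.97 and 14.83 at 10 μg/mouse and at 12.58, 13.13 and 13.06 at 40 μg/mouse, and the PBS samples ran from 15.55 through 15.92 to 16.35. The low dose overlapped PBS and the 3 doses did not overlap. The step was −2.90 ± 0.26 (7.49-fold lower, limma, adjusted p = 3.11e-12). Hbb-b2 met the rule for needing the high dose, although its samples at 10 μg/mouse already lay below every PBS sample. Alas2, the first enzyme of haem synthesis in red cells, went from 11.59, 11.18 and 11.25 at 2.5 μg/mouse to 8.29, 8.94 and 8.82 at 40 μg/mouse, a step of −2.65 ± 0.29 (adjusted p = 3.59e-10). Hbb-bt and Hba-a1 fell by 3.02 and 2.16, and globin probes may share signal. Slc4a1, the anion exchanger of the red cell membrane, was not well above background in any sample at 40 μg/mouse and was at least 1.92-fold lower there, a bound that sets it to the dimmest signal well above background on each array, or to its own signal where that was higher. In all, 4 of 5 measured red cell genes fell and the mean level of the list ran from 11.26 to 11.57 at 2.5 μg/mouse and from 9.31 to 9.78 at 40 μg/mouse, with PBS at 11.27 to 11.83. The part of blood left in the tissue in the other falls of the step was not tested.

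Lymphocyte genes fell in the same step. Of 11 T cell genes, 8 fell and 0 rose, 6 of them needed the high dose, and the median step was −0.89. Cd2, an adhesion receptor of T and NK cells, was at 10.62, 10.65 and 11.12 at 2.5 μg/mouse, at 10.75, 10.49 and 10.42 at 10 μg/mouse and at 9.16, 8.95 and 8.83 at 40 μg/mouse. Only the 40 μg/mouse samples stood apart from the other doses, and the step was −1.81 ± 0.17 (adjusted p = 7.29e-12). Cd5, a brake on T cell receptor signalling, fell by 1.31, the CD3 chains Cd3d and Cd3g by 1.24 and 1.03. Cd3e and Cd4 were not called, at −0.41 and −0.18. The mean level of the list was 8.06 to 8.43 at 2.5 μg/mouse and 7.27 to 7.61 at 40 μg/mouse. Of 6 NK cell genes 3 fell, among them the granzyme Gzma (−1.60), and of 7 B cell genes 3 fell (among them Ms4a1 by −1.15 and Cd79b by −0.93), but 0 of the 7 without replicate 3 of 2.5 μg/mouse, and Ms4a1 and Cd79b were not called without replicate 2 of 40 μg/mouse either (−0.88 and −0.75).

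Genes of the resident airway and vessel cells fell as well. Of 6 club cell genes 4 fell, with a median step of −1.35. Scgb3a2, a secretoglobin, was at 16.23, 16.13 and 16.40 at 2.5 μg/mouse, at 16.20, 16.82 and 16.43 at 10 μg/mouse and at 15.51, 14.05 and 14.05 at 40 μg/mouse. Every 40 μg/mouse sample was below the other doses, but replicate 1 less so, and the step of −1.72 ± 0.42 (adjusted p = 0.00176) was −1.37 without replicate 2 of 40 μg/mouse (adjusted p = 0.0606). Cyp2f2, the club cell P450 that activates naphthalene, fell by 1.51 ± 0.29, the carbonyl reductase Cbr2 by 1.57 and the retinal dehydrogenase Aldh1a1 by 1.20, whereas Scgb1a1, the most abundant club cell product, was not called (−0.21). Of 11 genes of xenobiotic oxidation 9 fell and 0 rose (median −0.96), including Cyp1a1 by 1.28 and the aldehyde oxidase Aox3 by 0.98. Of 10 endothelial genes 6 fell (median −0.74), with the VEGF receptor Kdr at −0.93, the adrenomedullin receptor partner Ramp2 at −0.90 and the tight junction gene Cldn5 at −0.77, and Pecam1 at −0.47 was not called; scaled to the 75th percentile of each sample, 3 of the 10 fell. The transporter Slc6a20a (−1.47 ± 0.14) and Smad6, an inhibitor of BMP signalling (−1.41 ± 0.17), were among the 6 largest falls that needed the high dose.

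Alveolar macrophage genes fell in 10 of 14 and rose in 0, with a median step of −0.95; with dye and array as the fixed terms 6 fell. Fabp1, a fatty acid binding protein of these cells, was at 8.81, 9.12 and 9.35 at 2.5 μg/mouse, at 9.65, 8.95 and 8.73 at 10 μg/mouse and at 6.05, 6.06 and 6.12 at 40 μg/mouse, where 2 of 3 samples were well above background. The step was −3.02 ± 0.39 (adjusted p = 3.83e-08), and at 2.5 μg/mouse it lay −0.99 from PBS, which was not called (adjusted p = 0.0817). Siglecf, a sialic acid receptor, and Pparg, the nuclear receptor that these cells need to mature, fell by 0.87 and 0.82. In a list of lipid-handling macrophages, which take up debris, Gpnmb, Trem2, Apoe and Plin2 rose by 1.29, 1.00, 0.79 and 0.63, and the cholesterol exporter Abcg1 and the protease Ctsk fell by 1.04 and 0.85, that is 4 up and 2 down of 12. Without replicate 1 of 40 μg/mouse 2 rose (Gpnmb 0.92, adjusted p = 0.0701), with dye and array as the fixed terms 2 rose, and without replicate 3 of 2.5 μg/mouse Ctsk was not called (−0.52, adjusted p = 0.154).

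Of 13 measured clock genes, 7 fell and 1 rose over the step, against 2.51% and 3.09% of all genes, with a median of −0.81. Clock, Npas2, Per1, Cry1 and Ciart were not called, with steps from −0.57 to 0.20. Dbp, a transcription factor driven by the clock, was at 13.95, 13.83 and 13.95 at 2.5 μg/mouse, at 13.24, 13.43 and 13.43 at 10 μg/mouse and at 12.05, 11.30 and 11.37 at 40 μg/mouse, against 14.05 to 14.68 in PBS. The level was lower with each dose without overlap, and the step was −2.34 ± 0.28 (adjusted p = 4.51e-09). Nr1d1 and Nr1d2, the Rev-erb repressors, fell by 1.60 and 1.40, Tef by 1.01 and Per3 by 0.94. Arntl, the partner of Clock that Rev-erb represses, rose by 0.60. That call was lost with normexp background correction, with scaling to the 75th percentile and with only the CuO and PBS samples of these slides. It was also lost without replicate 2 or 3 of 2.5 μg/mouse, and without replicate 2 or 3 of 40 μg/mouse. The part of the hour at which the tissue was taken was not tested.

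**Figure D3:**
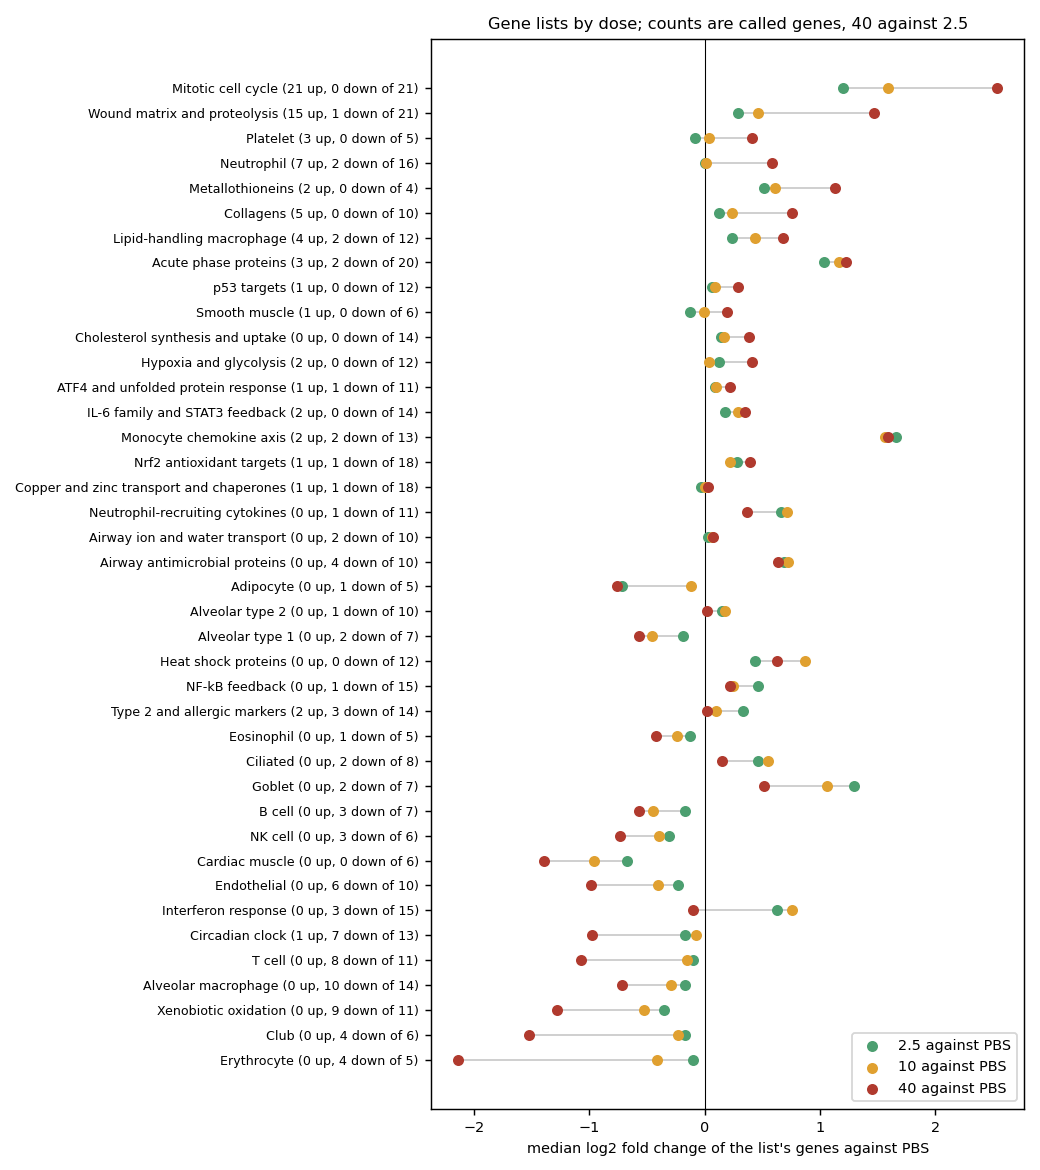
Median log2 fold change against the 7 PBS samples of each gene list at CuO 2.5, 10 and 40 μg/mouse (points), with the number of members called up and down over the step in the labels. The mitotic list runs 1.20, 1.59 and 2.54, the wound matrix list 0.29, 0.46 and 1.47, and the red cell, club cell, xenobiotic, T cell and endothelial lists lie between −2.13 and −0.98 at 40 μg/mouse.

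Graded genes moved at 2.5 μg/mouse and again up to 40 μg/mouse. The medians of their rises against PBS were 0.85, 1.10 and 1.92 at the 3 doses, and those of their falls −0.69, −0.84 and −1.64. Mt2, a metallothionein, was at 12.72, 13.48 and 13.65 at 2.5 μg/mouse, at 12.98, 13.50 and 13.34 at 10 μg/mouse and at 14.69, 14.87 and 14.46 at 40 μg/mouse, with PBS samples from 11.23 through 11.52 to 12.14. Each dose lay above PBS, 2.5 and 10 μg/mouse overlapped and 40 μg/mouse stood above both. Mt2 was 3.31-fold above PBS at 2.5 μg/mouse and 8.67-fold at 40 μg/mouse, and its step was 1.39 ± 0.30 (2.62-fold; adjusted p = 0.000458). Mt1 was at 10.58, 11.11 and 11.15 at 2.5 μg/mouse and at 11.86, 12.08 and 12.03 at 40 μg/mouse, a step of 1.04 ± 0.20 (adjusted p = 0.000111), and its rise of 0.90 at 2.5 μg/mouse was 0.74 and not called without replicate 3 of 2.5 μg/mouse (adjusted p = 0.0635). Mt1 and Mt2 were the 2 of 4 metallothionein genes that rose, and theirs are the first promoters printed above. The promoters of Mt3 and Mt4, which were not called, also held the metal response element core, with 1 match each.

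Other genes of metal handling moved little over the step. Of 18 genes of copper and zinc transport 1 rose and 1 fell. Slc39a14, an importer of zinc and other divalent metals, was at 8.22, 8.57 and 8.31 at 2.5 μg/mouse, at 8.27, 8.35 and 8.50 at 10 μg/mouse and at 9.21, 9.70 and 9.43 at 40 μg/mouse, and only the last were apart (1.08 ± 0.21, adjusted p = 7.49e-05). Sod3, the extracellular copper-zinc superoxide dismutase, fell by 0.68 (by 0.57, below the threshold, without replicate 2 of 40 μg/mouse). The copper importer Slc31a1, the copper pump Atp7a and the metal sensor Mtf1 were not called, with steps of 0.03, −0.06 and −0.12. Of 18 Nrf2 target genes 1 rose (Srxn1, sulfiredoxin, 0.69) and 1 fell (Gstm1, −0.99).

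The mitotic list was graded in every measured member. All 21 were called up at 2.5 μg/mouse, all 21 rose again over the step, and the median against PBS was 1.20, 1.59 and 2.54. Cdk1, the kinase that starts mitosis, was at 7.82, 7.86 and 8.18 at 2.5 μg/mouse, at 8.28, 8.35 and 8.38 at 10 μg/mouse and at 9.34, 9.42 and 9.13 at 40 μg/mouse, with PBS from 6.45 through 6.60 to 7.04. No dose overlapped another or PBS. It was 2.30-fold above PBS at 2.5 μg/mouse, and its step was 1.34 ± 0.20 (2.54-fold; adjusted p = 5.66e-07). Ccna2, cyclin A2, rose from 8.21, 8.55 and 8.96 to 10.20, 10.34 and 10.15 between the 2 doses (1.66 ± 0.20), and Top2a, topoisomerase II alpha, from 8.79, 8.92 and 9.30 to 10.19, 10.28 and 10.06 (1.18 ± 0.18). In each the highest sample at 2.5 μg/mouse was replicate 3, and without it 21 of 21 still rose over the step and 18 were called at 2.5 μg/mouse.

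Spp1, osteopontin, a secreted matrix protein of macrophages and injured epithelium, was at 11.96, 12.68 and 12.85 at 2.5 μg/mouse, at 13.11, 13.22 and 13.44 at 10 μg/mouse and at 14.50, 14.31 and 14.49 at 40 μg/mouse, with PBS at 10.11 to 11.24. The groups lay one above the other without overlap, and the step was 1.94 ± 0.34 (adjusted p = 1.53e-05). Timp1, an inhibitor of matrix metalloproteinases, was at 11.64, 12.93 and 12.48 at 2.5 μg/mouse, at 12.11, 12.19 and 11.91 at 10 μg/mouse and at 13.69, 14.29 and 13.95 at 40 μg/mouse. Only 40 μg/mouse stood apart from the other doses (1.63 ± 0.42, adjusted p = 0.00289), and the call was lost without replicate 1 of 2.5 μg/mouse (1.19, adjusted p = 0.0713) or replicate 2 of 40 μg/mouse (1.40, adjusted p = 0.054).

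Of the 29 graded falls, the largest steps were in ribonucleases of the Ear family, which eosinophils and alveolar macrophages make. Ear1 was at 11.01, 10.83 and 11.40 at 2.5 μg/mouse, at 11.20, 10.97 and 10.26 at 10 μg/mouse and at 8.38, 8.33 and 8.53 at 40 μg/mouse, with PBS samples from 11.70 to 12.21. The 40 μg/mouse samples were close together and far below the rest. The step was −2.67 ± 0.27 (6.35-fold lower; adjusted p = 7.94e-11) and the low dose lay −0.91 from PBS (adjusted p = 0.0139). The call at 2.5 μg/mouse was lost for Ear1 and Ear10 without replicate 1 or 2 of 2.5 μg/mouse or replicate 3 of PBS (Ear1 −0.77 to −0.87, adjusted p = 0.052 to 0.0912), so that their graded class rests on those samples. Ear2, Ear10 and Rnase2a fell over the step by 2.69, 2.61 and 2.45, of which Rnase2a was not called at 2.5 μg/mouse, and the family's probes may share signal. Igfbp3, an insulin-like growth factor binding protein, and Colq, the collagen tail of acetylcholinesterase, fell by 2.04 and 1.93 after falls of 1.16 and 1.19 at 2.5 μg/mouse.

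Plateau genes had moved at 2.5 μg/mouse, and the 95% interval of their step lay within 0.58 of 0. Further changes smaller than this margin are not excluded. Of the 131, 84 were called against PBS in the same direction at 10 μg/mouse and 109 at 40 μg/mouse. The medians of the 92 rises against PBS were 0.71, 0.75 and 0.75 at the 3 doses, and those of the 39 falls −0.62, −0.52 and −0.73. The largest step of any plateau gene was 0.31 in size. Of the 6 largest rises, Ccna1, Ccno and Deup1 are genes of the making of cilia. Ccna1, a cyclin of germ cells and multiciliated cells, was at 8.91, 8.82 and 9.40 at 2.5 μg/mouse, at 8.76, 9.33 and 9.15 at 10 μg/mouse and at 9.37, 9.23 and 8.66 at 40 μg/mouse, with PBS from 6.76 through 7.29 to 7.67. All 9 exposed samples were above all PBS samples and the doses overlapped. It was 3.54-fold above PBS at 2.5 μg/mouse (1.82 ± 0.24, adjusted p = 1.67e-07) and its step was 0.04, with a 95% interval of −0.46 to 0.55.

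Ccno, the cyclin O needed for the mass production of basal bodies, was at 10.64, 10.39 and 11.18, then at 10.23, 10.63 and 10.54, and then at 10.62, 11.20 and 10.61, against 8.64 to 9.71 in PBS. Deup1, which builds the deuterosomes on which those basal bodies form, was at 8.73, 8.82 and 9.46, then at 8.95, 9.13 and 8.93, and then at 9.09, 9.45 and 8.94, against 7.44 to 8.00. Both were above every PBS sample at every dose and overlapped between doses, with low-dose differences of 1.63 and 1.29 and steps of 0.08 and 0.16. Foxj1, the master regulator of motile cilia, was 1.20 ± 0.16 above PBS at 2.5 μg/mouse with a step of −0.24 ± 0.16. The axoneme genes Rsph1 and Tekt1 rose less at 2.5 μg/mouse, by 0.68 and 0.63. Of 8 ciliated cell genes, however, 3 were at plateau and 2 fell over the step, Tppp3 by 1.18 and Dnah5 by 0.68, so that the list did not move as one. Dnah5 was not called without replicate 3 of 2.5 μg/mouse or replicate 2 or 3 of 40 μg/mouse (−0.53 to −0.57). Without replicate 3 of 2.5 μg/mouse, 1 of the 8 was called above PBS at that dose, so that the 3 at plateau rest in part on that sample.

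Genes of metals, inflammation and stress made up other parts of the plateau. Steap4, a metalloreductase that reduces iron and copper, was at 8.63, 8.87 and 8.57 at 2.5 μg/mouse, at 8.23, 8.51 and 8.48 at 10 μg/mouse and at 8.47, 8.96 and 8.68 at 40 μg/mouse, with PBS at 6.76 to 7.27. The doses overlapped, all above PBS, 3.26-fold at 2.5 μg/mouse, and the step was 0.01 with an interval of −0.42 to 0.44. Cp, ceruloplasmin, the copper-carrying ferroxidase of plasma, was 0.76 above PBS with a step of −0.02 ± 0.09. Tnf, with 7.41, 7.47 and 7.57 at 2.5 μg/mouse and 7.26, 7.64 and 7.10 at 40 μg/mouse, stood above the PBS range of 6.44 to 6.67 at both doses (0.94 and then a step of −0.15). The NF-kB genes Nfkbie and Nfkb2, Gclc of glutathione synthesis, the chaperones Hspa8 and Hsp90aa1, the collectin Sftpd and the monocyte receptor Ccr2 were at plateau, 0.62 to 0.87 above PBS at 2.5 μg/mouse. Of 15 NF-kB feedback genes 0 rose and 1 fell over the step (Traf1, −0.85), and of 12 heat shock genes 0 were called over it, although 5, 10 and 7 were above PBS at the 3 doses. Among the falls at plateau, Scgb1c1, a secretoglobin, was at 9.37, 9.38 and 9.31 at 2.5 μg/mouse and at 9.30, 9.36 and 9.42 at 40 μg/mouse, below the PBS range of 10.10 to 10.43 (−0.94, with a step of 0.01). With dye and array as the fixed terms only 8 genes met the plateau rule, 1 of them among the 131, and the cause was not tested.

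The genes raised most by 2.5 μg/mouse were acute phase proteins and chemokines, and for most of them the step was too uncertain for any class. Saa3, the serum amyloid A of inflamed tissue, was at 15.09, 15.91 and 15.13 at 2.5 μg/mouse, at 15.02, 15.71 and 15.50 at 10 μg/mouse and at 15.21, 16.44 and 15.24 at 40 μg/mouse, with PBS samples from 10.02 through 11.27 to 12.41. All doses overlapped and lay above PBS, 19.0-fold at 2.5 μg/mouse, and the step of 0.26 ± 0.60 had an interval of −0.95 to 1.46. Lcn2, lipocalin 2, which binds bacterial siderophores, was at 15.46, 15.39 and 14.80, then at 14.47, 15.57 and 15.29, and then at 15.01, 15.68 and 14.90 at the 3 doses. It was 8.25-fold above PBS at 2.5 μg/mouse with a step of −0.02 (−0.68 to 0.63). Of 20 acute phase genes 15 were up at 2.5 μg/mouse, and over the step 3 rose (Serpina3n, Serpina3m and Fgg by 1.68, 1.67 and 0.67) and 2 fell.

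Cxcl5, a neutrophil chemokine of the epithelium, was at 9.71, 10.36 and 9.61 at 2.5 μg/mouse and at 8.40, 10.23 and 9.31 at 40 μg/mouse, with PBS at 5.64 to 7.52. Both doses lay above PBS and overlapped (step −0.58 ± 0.54). Of 11 neutrophil-recruiting cytokines 5 were up at 2.5 μg/mouse, and over the step 0 rose and 1 fell (Csf2, below). Of 13 genes of the monocyte chemokine axis 10 were up at 2.5 μg/mouse, and over the step the chemokine Ccl12 rose by 1.04 while the chemokines Cx3cl1 and Ccl6 fell by 1.35 and 0.64. The Ccl12 call was lost without any 1 of 4 samples (0.75, adjusted p = 0.249, without replicate 1 of 2.5 μg/mouse), and that of Ccl6 without replicate 3 of either dose or with scaling to the 75th percentile (−0.15). Ccl2, the main monocyte attractant, was at 11.24, 11.68 and 11.90, then at 11.37, 11.79 and 12.11, and then at 12.28, 13.05 and 12.38 at the 3 doses. The 40 μg/mouse samples were the highest, but the step of 0.97 ± 0.46 (0.04 to 1.90) was not called (adjusted p = 0.152); with only the CuO and PBS samples of these slides it was 1.03 and called. Hmox1, haem oxygenase 1, was similar, from 11.96, 12.40 and 12.35 to 12.56, 13.53 and 12.92 (0.77 ± 0.37, adjusted p = 0.158), but with dye and array as the fixed terms its step was 1.92 and called.

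Turned back genes were higher than PBS at 2.5 μg/mouse and fell over the step (33 of 38), or the reverse (5). In 22 of the 33 the highest sample at 2.5 μg/mouse was replicate 3, in 8 replicate 2 and in 3 replicate 1. Clca1, a goblet cell product that processes mucus, was at 8.86, 8.99 and 13.40 at 2.5 μg/mouse, at 7.01, 7.45 and 10.71 at 10 μg/mouse and at 7.21, 6.66 and 5.78 at 40 μg/mouse, with PBS from 6.29 through 7.32 to 8.52. A single sample was far above its group at both 2.5 and 10 μg/mouse. The step of −3.86 ± 1.00 (adjusted p = 0.00326) became −1.65 (adjusted p = 0.338) without replicate 3 of 2.5 μg/mouse. Likewise the airway mucin Muc5ac went from −1.45 to −0.23 (adjusted p = 0.843) and Chil4, a chitinase-like protein, from −1.67 to −0.75 (adjusted p = 0.201).

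Without replicate 3 of 2.5 μg/mouse, 38 of 38 kept both signs and 12 kept both calls. Csf2, the growth factor GM-CSF, was one of these, at 8.74, 9.02 and 8.41 at 2.5 μg/mouse, at 8.34, 8.46 and 8.57 at 10 μg/mouse and at 7.47, 7.95 and 7.51 at 40 μg/mouse, with PBS at 7.38 to 7.77. The low doses were above PBS and the 40 μg/mouse samples at or just over it, a step of −1.08 ± 0.16 (adjusted p = 9.69e-07) and −1.31 without that replicate. Itih4, an acute phase protease inhibitor, was at 12.12, 12.20 and 12.18, then at 11.82, 12.72 and 12.66, and then at 11.42, 11.06 and 10.77, against 10.29 to 10.65 in PBS (step −1.08 ± 0.21, adjusted p = 7.46e-05), and with dye and array as the fixed terms its step was −0.79 and not called. The complement component C3 and Pigr, the receptor that carries IgA through epithelium, kept both calls too, with steps of −0.85 and −0.61, and so did Ly6i, Ly6f, Vnn1 and Vnn3. Cd83, of activated dendritic cells and lymphocytes, was above PBS at 2.5 μg/mouse by 0.84 and below it at 40 μg/mouse by −1.10; without replicate 3 its step remained called (−1.51) and the rise at 2.5 μg/mouse (0.39) was not. Of 15 interferon response genes 14 had a negative step (median −0.77), of which 3 were called (Gbp3, Oasl2 and Ifit3 by −1.14, −1.13 and −0.90; Oasl2 not without replicate 3 of 2.5 μg/mouse, −0.99, nor Ifit3 without replicate 2 of 40 μg/mouse, −0.86), and the list's median against PBS was 0.63, 0.76 and −0.10. Of the 5 that fell at 2.5 μg/mouse and rose over the step, Ppbp and Gp9 are platelet genes (1.12 and 0.99); 3 of 5 platelet genes rose over the step, and the list's mean level was 7.47 to 7.65 at 2.5 μg/mouse and 8.24 to 8.40 at 40 μg/mouse. With dye and array as the fixed terms 0 of these platelet genes and 0 of the interferon genes were called. The falls of Ppbp and Gp9 at 2.5 μg/mouse were not called under the replicate block (−0.44 and −0.41, adjusted p = 0.124 and 0.11) or without replicate 3 of 2.5 μg/mouse. The part of platelets in the other rises was not tested.

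**Figure D4:**
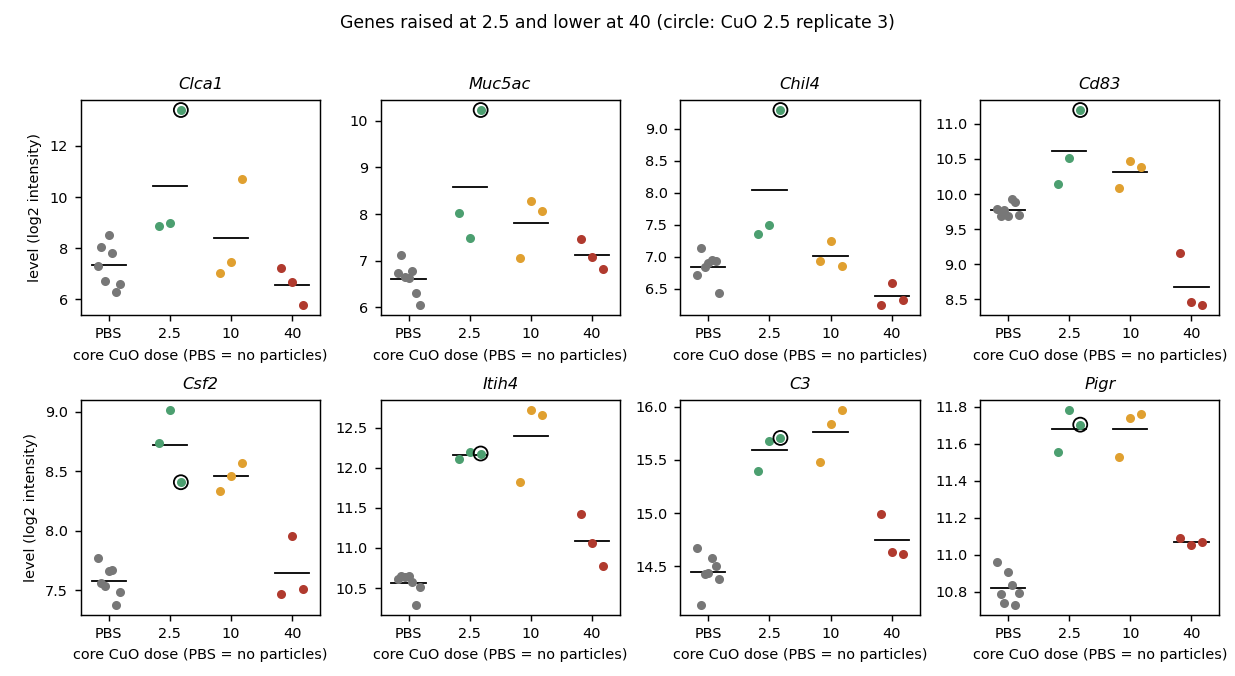
Log2 intensity of 8 turned back genes in each PBS, CuO 2.5, CuO 10 and CuO 40 μg/mouse sample, with replicate 3 of CuO 2.5 circled. In Clca1, Muc5ac, Chil4 and Cd83 the circled sample is the highest of its group (13.40 against 8.86 and 8.99 for Clca1), whereas in Csf2 it is the lowest (8.41).

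The counts for goblet cell and type 2 genes rested in part on that sample. Of 7 goblet cell genes 2 fell over the step, and 0 without replicate 3. Of 14 type 2 and allergic marker genes 2 rose (Arg1 by 1.98 and Retnla by 1.79) and 3 fell (Chil4, Ccl11 and Ccl17), and without replicate 3 these were 2 and 0. Retnla, a resistin-like protein of alternatively activated macrophages, was at 13.70, 14.87 and 15.82 at 2.5 μg/mouse and at 17.01, 15.75 and 17.02 at 40 μg/mouse, and its groups overlapped. Its step was 1.12 (adjusted p = 0.133) without replicate 1 of 2.5 μg/mouse, and that of Arg1 was 1.52 (adjusted p = 0.0656), while without replicate 2 of 40 μg/mouse Arg1 was at 1.61 (adjusted p = 0.0793). Of 14 cholesterol genes and 6 cardiac muscle genes 0 were called over the step, and of 10 alveolar type 2 genes 1 fell (Sftpa1, −0.78).

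The same step was measured in 3 coated materials: carboxylated CuO (CuO COOH) on the same slides, and methylaminated CuO (CuO NH3) and CuO with polyethylene glycol (CuO PEG) on other slides, each with 3 samples a dose. By the study's methods the doses were matched by mass of material and not by copper. The coated materials held less copper than core CuO, and CuO PEG held the least. The part of copper content in the differences below was not tested. The difference of the steps was tested for each of the 3 pairs, with p-values adjusted over the 22911 genes of each pair. The step of CuO differed from that of CuO COOH in 2 genes (0.00873%), from that of CuO NH3 in 0 (0%, by limma; 1251 at an unadjusted p below 0.05) and from that of CuO PEG in 313 (1.37%; 125 larger and 188 smaller in CuO). A difference that misses the threshold does not show that the materials act alike: for Cdk1 the difference from CuO PEG was 0.03 with an interval of −0.54 to 0.60, and for Mt2 0.07 with one of −0.81 to 0.95.

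Of the 10 largest rises of the step in CuO, 8 had a step that was called larger than in CuO PEG. The 10 were chosen on the CuO step, which favours a larger difference, so this count is not a test of the materials. The stefins among the 8 are near-copies and not separate observations. Cstdc4 and Psrc1, a spindle protein, were not called, with differences of 1.82 (adjusted p = 0.0809) and 0.77 (adjusted p = 0.112). The step of Stfa1 was 3.46 in CuO, 2.04 in CuO COOH, 2.92 in CuO NH3 and 0.24 in CuO PEG, and it exceeded that of CuO PEG by 3.22 (limma, adjusted p = 0.000331). The step of Retnlb was 3.56, 4.14, 4.42 and 0.80 in the same order, larger in CuO than in CuO PEG by 2.77 (adjusted p = 0.00363), and that of Ereg was 2.51, 2.47, 2.50 and 0.73 (1.77, adjusted p = 0.000144). The steps of Col1a1 were 1.83, 1.94, 2.05 and 0.99, and its difference from CuO PEG of 0.84 (0.27 to 1.41) was not called (adjusted p = 0.132). The steps of Cdk1 were 1.34, 1.51, 1.39 and 1.31.

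Some acute phase and chemokine genes that were already high at 2.5 μg/mouse of CuO had a smaller step in CuO than in CuO PEG. Cxcl5, Saa3 and Saa1 were named because their differences were the largest of this direction. The mean of Saa3 was 11.12 in PBS, 15.38 and 15.63 at 2.5 and 40 μg/mouse of CuO, and 10.89 and 14.94 at these doses of CuO PEG. The means of Cxcl5 were 6.22, then 9.89 and 9.32, and then 5.89 and 9.78. In both genes CuO PEG lay near PBS at 2.5 μg/mouse and near CuO at 40 μg/mouse. The step of Cxcl5 was −0.58 in CuO, 0.22 in CuO COOH, −0.30 in CuO NH3 and 3.88 in CuO PEG, a difference from CuO PEG of −4.46 (adjusted p = 0.000246). That of Saa3 was 0.26, 2.11, 0.14 and 4.05 (−3.79, adjusted p = 0.00855), and Saa1, Lcn2, Cxcl1 and Ccl2 differed from CuO PEG by −3.24, −2.72, −3.00 and −2.68. Other genes raised at 2.5 μg/mouse were not called different from CuO PEG, with differences of −0.63 for Hmox1 (adjusted p = 0.703), −0.92 for Timp1 (adjusted p = 0.581) and −1.21 for Spp1 (adjusted p = 0.246). Itih4 turned back in CuO and not in every material: its steps were −1.08, 0.48, −0.89 and 1.57, and CuO differed from CuO COOH by −1.56 ± 0.28 (adjusted p = 0.00861) and from CuO PEG by −2.65. The difference from CuO COOH lost its call without any 1 of 6 samples, among them replicates 2 and 3 of CuO 40 μg/mouse (−1.54 and −1.37, adjusted p = 0.0581 and 0.133), and was −1.31 (adjusted p = 0.385) without replicate 2 of CuO COOH 2.5 μg/mouse. The other gene that differed from CuO COOH was Anxa10, an annexin, whose mean was 5.56 and 5.77 at 2.5 and 40 μg/mouse of CuO, where it was not well above background, and 5.62 and 6.95 in CuO COOH (−1.12 ± 0.16, adjusted p = 0.000189). With dye and array as the fixed terms, 6 genes differed from CuO PEG in place of 313, and the differences of Stfa1, Retnlb, Cxcl5, Saa3 and Saa1 from CuO PEG and of Itih4 and Anxa10 from CuO COOH were not called. Without replicate 2 of CuO 40 μg/mouse the Retnlb difference was 2.14 (adjusted p = 0.079).

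**Figure D5:**
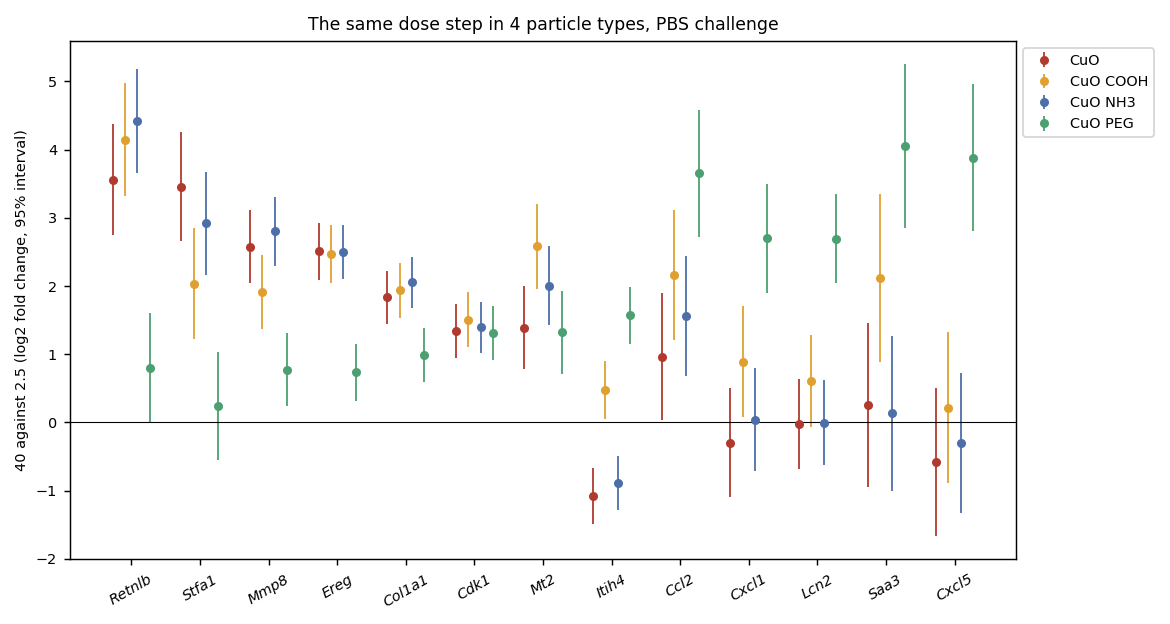
Log2 fold change of 40 against 2.5 μg/mouse (points) with its 95% interval (bars) for 13 genes in CuO, CuO COOH, CuO NH3 and CuO PEG. Retnlb, Stfa1, Mmp8 and Ereg lie above 2 in CuO and below 1 in CuO PEG, and Saa3 and Cxcl5 lie at 0.26 and −0.58 in CuO and at 4.05 and 3.88 in CuO PEG.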

How the data were processed

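Lung RNA of PBS-challenged mice was measured on 2-colour Agilent arrays, 1 sample per colour. The deposited scanner files hold intensities; the authors took median foreground intensities from Feature Extraction, log2-transformed and quantile-normalized them, removed labelling and array effects with ComBat and averaged probes per gene. The deposited table of normalized log2 values was used as an alternative (89 of 89 columns matched their own channel best). From the intensities, log2 median foreground without background subtraction was quantile-normalized over the 89 samples, with control spots (3671 of 62976) and outlier-flagged spots left out, which removed 1 value of Tgm1 at CuO 40. Spots were averaged to 56605 probes and 22911 genes; 32994 probes had 1 RefSeq gene and 23611 had none.

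One model was fitted with limma 3.58.1 (R 4.3.3) to all 89 samples in 26 groups, with dye, slide and array position as fixed terms, and p-values were adjusted by Benjamini-Hochberg over all genes. Figures were drawn with matplotlib 3.10.9 and tables read with pandas 2.3.3 in Python 3.11.15. Scripts were tested on simulated data. Over the CuO and PBS samples the median foreground was 56 to 115 in Cy3 and 72 to 170 in Cy5, that is 2 to 3.54 and 1.39 to 2.92 times the local background. Replicates of 10 and 40 μg/mouse with numbers 1 and 3 shared arrays.

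Same-numbered samples of 2.5 and 40 μg/mouse lay on the same slide, and their deviations from the group means correlated at 0.49, 0.24 and 0.18. Samples of these doses with different numbers correlated at −0.45 to 0.34, so the correlations alone do not show that the number pairs the samples. Slide was a term of every main fit. Named genes were the 10 largest rises and falls of the step among called genes whose samples did not overlap, the 6 largest in each direction of each class, up to 4 turned back genes, up to 4 called members of each list with uncalled examples, 9 genes of metal response, inflammation and division, and the 3 largest differences between materials in each direction; others are described because their class or list is, and were chosen after their values were seen. The groups, lists and tests were chosen with earlier results of these data known. Alternatives covered background correction, normalization, batch terms, dim probes, the samples in the fit, thresholds and each left-out replicate. Values of some single genes are not reported here.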

Additional observations from a re-analysis of the deposited data

Results flagged for a closer look

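In 9 of 148 genes tested over the 7 PBS samples (6.08%), 1 control sample lay apart from the other 6 by Dixon's test, which flags about 1 in 20 groups by chance. PBS replicate 4 was that sample in 4 of the 9, with log2 intensities of 14.29 for Col1a2, 14.214 for Hopx, 12.143 for Mt2 and 9.4067 for Saa1. PBS replicate 1 was it for Hmox1 (8.1714) and S100a8 (12.892), replicate 2 for Srxn1 (10.24), replicate 3 for Colq (11.994) and replicate 6 for Itih4 (10.291). These samples enter the comparisons with PBS directly. The step between the doses of CuO does not use the PBS group. The PBS samples still share its fit, through the terms for dye, slide and position and through the estimate of the spread.

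The step from 2.5 to 40 μg/mouse differed between materials by limma's test of the difference. It was smaller in CuO than in CuO COOH for 2 genes, Itih4 (−1.5559 on the log2 scale) and Anxa10 (−1.1159). Against CuO PEG it was larger in CuO for 125 genes, led by Stfa1 (3.2165), Cstdc5 (2.9614) and Retnlb (2.765), and smaller for 188, led by Cxcl5 (−4.4622), Saa3 (−3.7903) and Saa1 (−3.2436). CuO and CuO PEG lay on different slides, with slide as a term of the fit, and the same dose held less copper in the coated materials.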

How the results depend on the processing

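No count or named gene reversed its direction under any alternative run. For the step of CuO 40 against 2.5 μg/mouse, 1282 genes were called, 4405 with no fold threshold, and otherwise no alternative moved the count by over 1.5 times; left-out replicates gave 998 (without CuO 40 replicate 2) to 1491 (without CuO 40 replicate 1), with 557 to 831 higher and 441 to 660 lower. Of 150 named genes, 52 changed their call for the step in at least 1 refit and 44 that at 2.5 μg/mouse. Under the replicate block (terms for the number and the dye alone), 1248 genes were called over the step, 4 from 2.5 to 10 and 950 from 10 to 40 μg/mouse, the classes held 556 (needs the high dose), 197 (graded), 91 (plateau) and 28 (turned back) genes, and no count moved by over 1.5 times; the calls of Pigr, Muc5ac and Herpud1 over the step were lost.

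With dye and array as fixed terms, 208 genes differed from PBS at 2.5 μg/mouse (551 otherwise), the classes held 318, 68, 8 and 6 genes, 0 were called from 2.5 to 10 μg/mouse, 0 for the difference between the intervals, 0 against the step of CuO COOH and 6 against that of CuO PEG; array terms leave fewer degrees of freedom. Of the 1282 genes of the step, 1281 were tested with dye and array as fixed terms, 667 were still called and 1279 kept their sign. The similar count thus hides a change in which genes were called. Of their main members, the classes kept 131 of 539 (needs the high dose), 60 of 208 (graded), 1 of 131 (plateau) and 3 of 38 (turned back). With array as a random block, 0 were called from 2.5 to 10 μg/mouse, 148 for the difference between the intervals (352 otherwise) and 1 against CuO COOH. From 2.5 to 10 μg/mouse (6 genes), normexp gave 3, scaling to the 75th percentile 1, loess 3, and slides 1 to 3 only or the CuO and PBS groups only 0. For the difference between the intervals, the 75th percentile gave 204, loess 569, ComBat 549, slides 1 to 3 only 210 and the CuO and PBS groups only 22. Against CuO COOH, the 75th percentile gave 1 and leaving out dim probes 1; against CuO PEG, the 75th percentile gave 206. On slides 1 to 3 only there were 228 plateau and 59 turned back genes, with the CuO and PBS groups only 20 turned back, and with a margin of 1 for the interval 870 needed the high dose and 267 were at plateau. The causes were not tested.

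Left-out replicates gave 0 to 6 genes from 2.5 to 10 μg/mouse (0 to 3 higher, 0 to 3 lower), 705 (without CuO 40 replicate 2) to 1234 (without CuO 40 replicate 1) from 10 to 40 (391 to 668 higher, 314 to 566 lower), and 66 (without CuO 10 replicate 1) to 649 (without CuO 40 replicate 1) for the difference between the intervals (37 to 340 and 29 to 309). Against PBS they gave 323 (without CuO 2.5 replicate 3) to 657 (without CuO 2.5 replicate 1) at 2.5 μg/mouse (257 to 525 higher, 66 to 143 lower), 697 to 1061 at 10 (538 to 711, 156 to 350) and 2276 to 2957 at 40 (1303 to 1718, 973 to 1239). The classes ran from 410 to 673, from 122 to 233, from 70 to 155 and from 19 to 49, the lowest of the last 3 without CuO 2.5 replicate 3. Differences from CuO COOH ran from 1 to 3 (lower 1 to 3), from CuO NH3 from 0 to 1 and from CuO PEG from 179 to 435 (66 to 208 and 106 to 227). Signals of 1.39 to 3.54 times the local background limit what dim genes can show.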
